A study of Mus musculus with 83 samples.

Results

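The miR-17-92 cluster is a run of 6 microRNA (miRNA) hairpins on mouse chromosome 14, and Mir17hg is the noncoding host gene annotated around them. These 7 features (Mir17, Mir18, Mir19a, Mir20a, Mir19b-1, Mir92-1 and Mir17hg) were chosen by their position, and they are 7 of 32101 features in the deposited small RNA table. The hairpins are excised from a single primary transcript by DROSHA and DGCR8, DICER cuts each of them to a short duplex, and 1 strand is loaded into an ARGONAUTE protein such as AGO2. The loaded miRNA pairs with target mRNAs mainly through its seed, the bases 2 to 8 from its 5′ end. The cluster is a target of MYC and E2F factors, is abundant in embryonic stem cells (ESCs), and is known for restraining apoptosis and promoting proliferation. It has a pair of paralogous clusters in the mouse, miR-106a-363 on chromosome X and miR-106b-25 inside the Mcm7 gene on chromosome 5.

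Small RNAs of 20 to 24 nt were sequenced from mouse ESCs in which Dnmt1, the maintenance DNA methyltransferase, could be deleted. The ESCs are Dnmt1 loxP/loxP cells in which tamoxifen induces Cre. The titles name them E14, whereas the study's methods give the strain C57BL/6, and they were kept with serum and LIF, with or without feeder cells. The time course holds a control and a Dnmt1 KO arm on days 1, 3, 6, 9, 11 and 25 with 3 libraries each, 36 in all. Whether the controls received tamoxifen is not given in the sources used here. A further 8 libraries hold RNA that was pulled down with AGO2, 4 from control and 4 from Dnmt1 KO cells. Their labels give no day, and they were compared with total RNA of day 9, the day the paper names for the pull-down. A pair of libraries titled "none" holds 1 of each genotype. Primordial germ cells (PGCs), the embryonic precursors of sperm and eggs, were sorted by Oct4-GFP from female and male C57BL/6J embryos at E13.5 and E14.5, with 1 library per sex and stage. Nothing states that libraries of a group came from separate cultures, so the p-values measure the spread between these libraries, which may be technical. Genotype tags contradict the titles in the AGO2, "none" and some R1 libraries, and those of PGCs carry an ESC tag. The titles were used throughout.

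Depth ran from 870481 to 6239009 reads in the libraries of days 1 to 11, from 521066 to 815523 on day 25 and from 1734576 to 3435993 in PGCs. In the AGO2 libraries it ran from 11497718 to 25423036 reads in control and from 1152390 to 11520133 in Dnmt1 KO. The "none" libraries held 57155 and 9830 reads. A second set of 33 libraries with the suffix R1 repeats the names of days 1 to 11 and of 3 PGC samples. The R1 libraries of the time course resembled their namesakes more than the other replicates did, with a median chi-square per degree of freedom of 3.45 against 9.70 over miRNA features, and they were not counted as replicates. Their recovered read numbers were even for 95.4% to 96.9% of features, against 35.99% to 46.2% in the time course. The R1 library titled E14.5 male went against its title. Its chi-square per degree of freedom was 2.5 against the E13.5 male library and 61.9 against the E14.5 male library. The R1 library titled E13.5 male, with only 60317 reads, was also nearer to another library. Its value was 2.56 against the E13.5 female library and 8.30 against the E13.5 male library. All 7 markers of ESCs (the miR-290 family) were present, with a summed level of 110501 to 208803 RPM (reads per 1000000 mapped reads) in the time course and of 12176 to 24352 RPM in PGCs. This sum also differed between genotypes. On day 25 it was 175306 to 208803 RPM in controls and 136240 to 141175 RPM in Dnmt1 KO. On day 6 it was higher in Dnmt1 KO, at 130346 to 139059 RPM against 110501 to 114233 RPM. Reads of 20 to 24 nt over the Dnmt1 gene (median 45.8 RPM in controls and 44.1 RPM in Dnmt1 KO) do not measure its mRNA and so do not check the genotype.

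The mature miRNAs show how the cluster is built, and they are printed because hairpins at different loci share a seed or a whole mature sequence. The 6 hairpins lie on the plus strand in 836 bases (NCBIM37), from chr14:115442893-115442976 for Mir17 and chr14:115443073-115443168 for Mir18 to chr14:115443649-115443728 for Mir92-1. All of them fall in an exon of Mir17hg. The sequences are from RefSeq (GRCm38.p6), with the seed in capitals, and each RefSeq hairpin was identical to the NCBIM37 genome at the position given in the table.
miR-17-5p (Mir17): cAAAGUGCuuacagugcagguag
miR-20a-5p (Mir20a): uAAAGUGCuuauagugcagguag
miR-18a-5p (Mir18): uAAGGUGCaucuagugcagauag
miR-19a-3p (Mir19a): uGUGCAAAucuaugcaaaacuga
miR-19b-3p (Mir19b-1): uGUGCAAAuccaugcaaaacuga
miR-92a-3p (Mir92-1): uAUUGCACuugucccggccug
miR-17-5p and miR-20a-5p share a seed and differ at 2 of 23 positions, C1U and C12U counted from the 5′ end of miR-17-5p. miR-19a-3p and miR-19b-3p share another seed and differ at 1 position, U11C. The seed of miR-18a differs from that of miR-17 by a single base at position 4 (A4G), and miR-92a has a seed of its own within the cluster. The paralogs repeat these seeds, and 2 of them repeat whole mature sequences. Mir92-2 and Mir19b-2, both on chromosome X, encode the same mature miRNA as Mir92-1 and Mir19b-1. The longest run of bases that Mir92-1 shares with Mir92-2 is 22, and Mir19b-1 shares 25 with Mir19b-2, so a read of 20 to 24 nt cannot always be assigned to 1 of the copies. Levels of Mir92-1 and Mir19b-1 are uncertain in this respect. Each table row covers a whole hairpin, so both of its arms are counted together.

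Mir92-1 dominated the cluster in every kind of library. It held 92.3% ± 1.88 (SD, n = 36) of the cluster's reads in the time course. Per length, its mean in the time course was 512363 RPKM, the third highest of 1577 miRNA features. Mir17 followed at 15779 RPKM, Mir20a at 9711 RPKM, Mir19a at 7237 RPKM and Mir18 at 4181 RPKM. Mir19b-1 was the lowest at 229 RPKM. In RPM, which is used from here on, single libraries of the time course ran from 25435 to 73056 for Mir92-1, from 688 to 1979 for Mir17, from 580 to 1576 for Mir20a, from 299 to 1251 for Mir19a, from 264 to 946 for Mir18 and from 7.32 to 72.9 for Mir19b-1. The ranges of Mir17, Mir20a, Mir19a and Mir18 all overlap each other, whereas Mir92-1 and Mir19b-1 stand apart from all the others.

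The host gene added nothing to the hairpins. Its reads differed from the sum over the 6 hairpins by -95 to 2 reads in the 83 libraries, at most 0.102% of that sum. The planned comparison of host reads outside the hairpins therefore had no values to test. Mir17hg is a restatement of the cluster's sum, which was 5.02% ± 1.22 (SD, n = 18) of a control library and 3.85% ± 0.622 (SD, n = 18) of a Dnmt1 KO library, and it is not an independent member in the counts below.

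**Figure D1:**
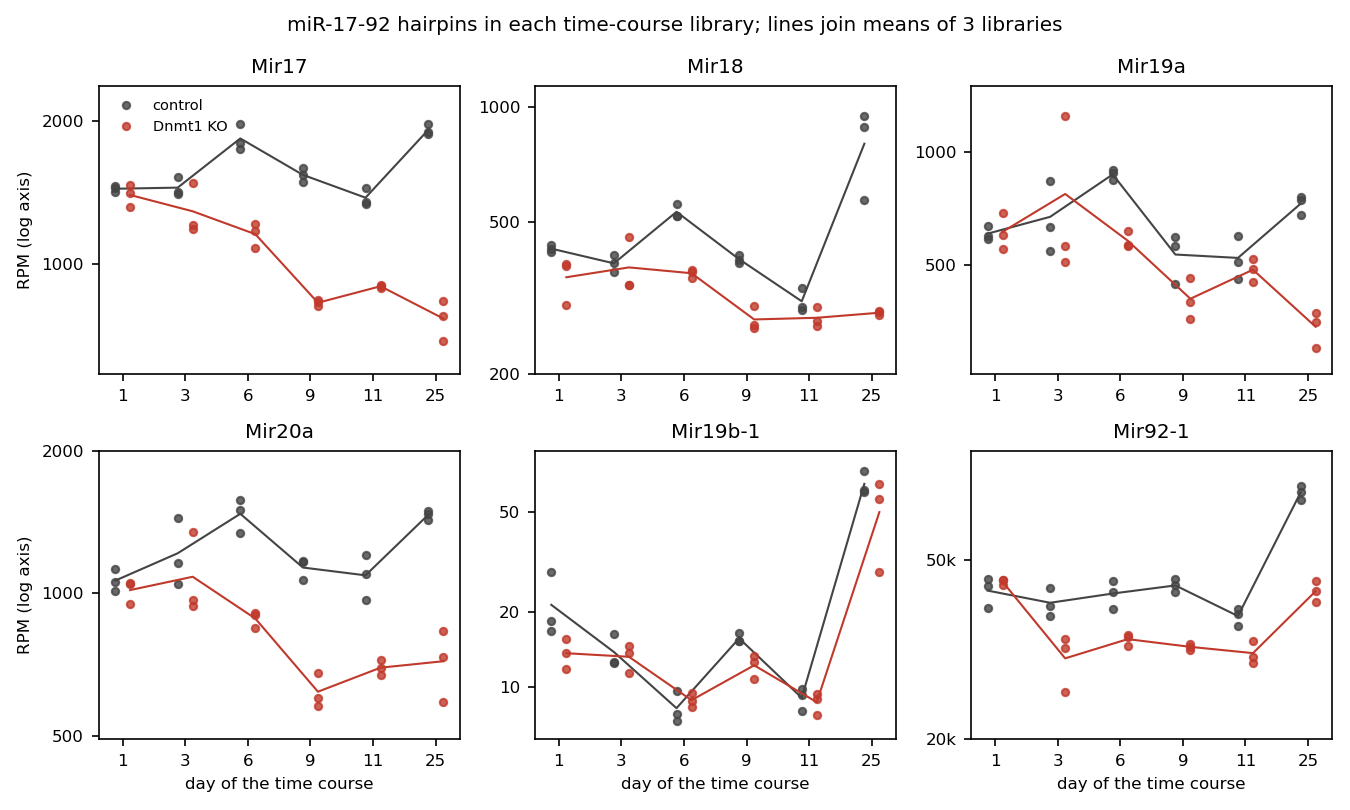
Level of each hairpin in RPM on a log axis by day of the time course, 1 point per library and lines through the means of 3 libraries, for control (gray) and Dnmt1 KO (red). Mir17 and Mir20a of Dnmt1 KO lie below all controls from day 6 on, and all hairpins but Mir19b-1 separate on day 25.

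The first question was how the cluster differed between Dnmt1 KO and control cells on each day. Mir17, the first hairpin, and Mir20a, which has the same seed, had the largest log2 differences of the 6 hairpins on days 6, 9 and 11 and averaged over days, but not on days 1, 3 and 25. On day 1, Mir17 was at 1445, 1459 and 1419 RPM in controls and at 1321, 1408 and 1465 RPM in Dnmt1 KO. The day 1 groups overlap. On day 9, Mir17 was at 1538, 1490 and 1597 RPM in controls and at 830, 816 and 838 RPM in Dnmt1 KO. On day 25, it was at 1895, 1979 and 1877 RPM in controls and at 688, 836 and 777 RPM in Dnmt1 KO. Every Dnmt1 KO library of these later days lies far below every control. The log2 fold changes of Mir17 (limma, Benjamini-Hochberg adjusted over 2582 features) were -0.78 ± 0.092 (SE, adjusted p = 1.12e-08) on day 6, -0.78 (8.81e-09) on day 9, -0.54 (2.69e-05) on day 11 and -1.21 (3.33e-14) on day 25.

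Mir20a, whose seed pairs with the same target sites as that of Mir17, was at 1169, 1069 and 1165 RPM in controls of day 9 and at 580, 602 and 679 RPM in Dnmt1 KO. On day 25 it was at 1431, 1474 and 1491 RPM in controls and at 735, 832 and 591 RPM in Dnmt1 KO. The groups do not overlap on days 6, 9, 11 or 25. By limma, its log2 fold changes were -0.84 ± 0.121 (SE, adjusted p = 7.55e-07) on day 6, -0.75 (5.45e-06) on day 9, -0.56 (0.000946) on day 11 and -0.93 (6.86e-08) on day 25. On days 1 and 3 neither Mir17 nor Mir20a passed the test.

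Mir92-1, whose mature miRNA also comes from chromosome X, changed earlier and by less. On day 1 it was at 45526, 43845 and 39112 RPM in controls and at 45165, 45316 and 43969 RPM in Dnmt1 KO, and these groups overlap. On day 3 it was at 39611, 43449 and 37626 RPM in controls and at 25435, 31907 and 33419 RPM in Dnmt1 KO, without overlap. The log2 fold change of Mir92-1 by limma was -0.40 ± 0.087 (SE, adjusted p = 0.00248) on day 3, -0.44 (0.000164) on day 6 and -0.34 (0.00427) on day 9. With day 3 fitted alone, Mir92-1 missed the threshold (adjusted p = 0.0671). On day 11 the 3 Dnmt1 KO libraries, at 29575 to 33139 RPM, were still below the controls at 35738 to 38998 RPM, but the test was not passed (adjusted p = 0.235 by limma). On day 25 controls held 71077, 73056 and 68198 RPM and Dnmt1 KO 44950, 40357 and 42736 RPM. That is a log2 fold change of -0.62 (limma, adjusted p = 3.52e-07), with the controls at their highest level of the time course.

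Mir18 and Mir19a fell on fewer days. Mir18 was at 391, 398 and 410 RPM in controls of day 9 and at 264, 270 and 301 RPM in Dnmt1 KO. On day 25 it was at 889, 946 and 570 RPM in controls and at 291, 292 and 286 RPM in Dnmt1 KO. The control libraries of day 25 spread widely for Mir18, and the Dnmt1 KO libraries hardly at all. The log2 fold changes of Mir18 by limma were -0.64 ± 0.135 (SE, adjusted p = 0.000404) on day 6, -0.41 (0.0291) on day 9 and -1.32 (1.60e-10) on day 25. The day 9 call of Mir18 was lost without Dnmt1 KO replicate 1 and without any 1 of the 3 controls (adjusted p = 0.0549 to 0.124 by limma), and with the R1 libraries (0.175).

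Mir19a, which shares its seed with Mir19b-1, was at 840, 877 and 897 RPM in controls of day 6 and at 561, 564 and 613 RPM in Dnmt1 KO. On day 25 it was at 760, 745 and 677 RPM in controls and at 352, 371 and 299 RPM in Dnmt1 KO. Neither pair of groups overlaps. The log2 fold changes by limma were -0.69 ± 0.186 (SE, adjusted p = 0.00464) on day 6 and -0.98 (5.71e-05) on day 25, the first of which was lost with the R1 libraries (0.0821). On day 3 the sign for Mir19a depended on single libraries. Dnmt1 KO replicate 1 held 1251 RPM against 507 and 559 RPM in its 2 companions and 839, 542 and 631 RPM in controls. The log2 difference on day 3 was 0.12 with all libraries and -0.32 without that replicate. Without control replicate 2 of day 3 it was -0.012, and none of these passed the test.

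Mir19b-1, the rarest hairpin, passed the test on no day. Its libraries held 17 to 87 reads. On day 25 it was at 61.0, 72.9 and 60.1 RPM in controls and at 28.9, 56.4 and 64.4 RPM in Dnmt1 KO, with overlap. Its SE on a single day was 0.226 on the log2 scale, against 0.092 for Mir17.

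Over all 7 members, 0 were called on day 1 (limma), where 3.80% of the 2582 tested features were called. At an unadjusted p under 0.05, 2 of the members (Mir18 and Mir19b-1) passed on that day, and voom called 0. On day 3, 2 members (Mir92-1 and the host) were called, all lower, beside 6.24% of all features (1.74% lower), and none was called with day 3 fitted alone. On day 6, 6 members were lower beside 23.0%, and on day 9, 5 were lower beside 18.4%. On day 11, 2 were lower (Mir17 and Mir20a) beside 8.64%. On day 25, 6 were lower beside 35.0%. The shares called lower among all features were 9.33% on day 6, 6.12% on day 9, 2.36% on day 11 and 17.0% on day 25. More miRNA features were lower than this. In a fit of miRNA features only, 91, 78, 70 and 134 of 291 were called lower on the same days, and 119 averaged over days. No member was called higher on any day. In terms of unscaled RPM, all Dnmt1 KO libraries lay below all controls for 2 members on day 1 (Mir18 and Mir19b-1) and 2 on day 3, beside 4.65% and 13.3% of all features, for 6 on day 6 (12.8%), 6 on day 9 (22.8%), 4 on day 11 (24.6%) and 6 on day 25 (19.1%). The median log2 fold change of the 7 members was -0.64 on day 6 and -0.93 on day 25, beside a median over all tested features of 0.14 and -0.0016. In the fit of miRNA features only, the median over the 291 features was -0.056 on day 6 and -0.32 on day 25. Averaged over the 6 days, 6 of the 7 members were lower (all but Mir19b-1) beside 26.7% of all features called and 10.1% called lower. The averaged log2 fold changes were -0.60 ± 0.038 (SE) for Mir17, -0.56 ± 0.050 for Mir20a, -0.47 ± 0.055 for Mir18, -0.34 ± 0.036 for Mir92-1, -0.32 ± 0.076 for Mir19a and -0.20 ± 0.092 for Mir19b-1 (limma, adjusted p from 7.28e-17 to 0.101). With the R1 libraries in place of their namesakes, the averaged change of Mir19a was -0.14 (limma, adjusted p = 0.412). Mir19b-1 passed in 5 of the 36 fits that leave out 1 library, with averaged changes of -0.24 to -0.28 (limma, adjusted p from 0.0144 to 0.0498), without control replicate 1 of day 1 or day 25, without Dnmt1 KO replicate 1 of day 3, or without Dnmt1 KO replicate 2 or 3 of day 25. With miRNA features only in the fit and the scaling it passed too, at -0.36 (limma, adjusted p = 0.000548).

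**Figure D2:**
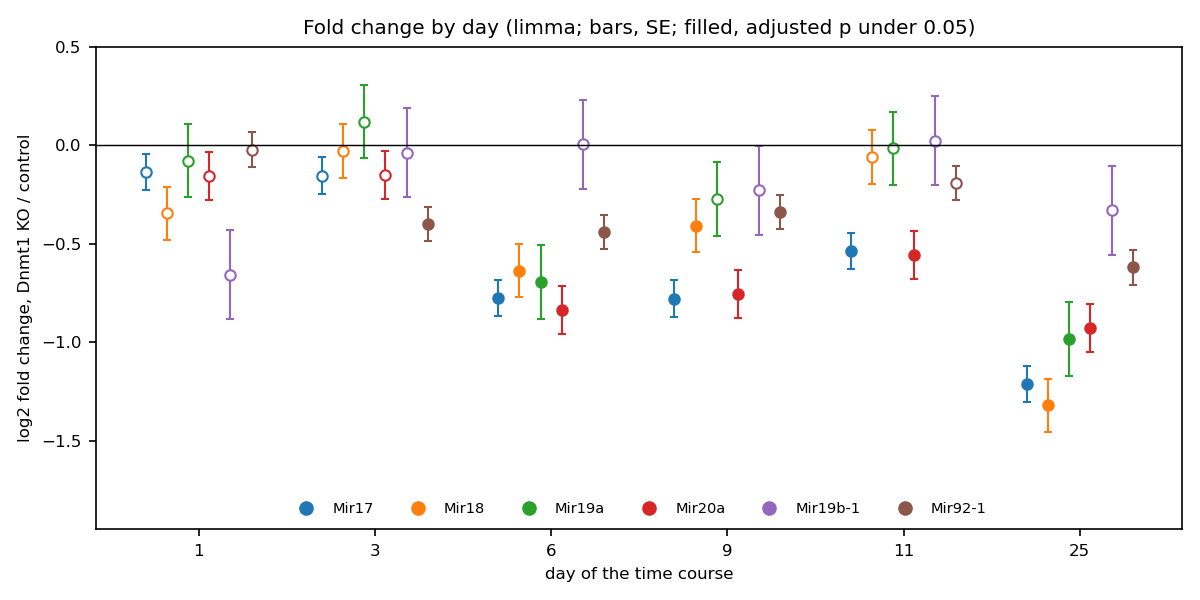
Log2 fold change of Dnmt1 KO over control (y axis) for each of the 6 hairpins on each day (x axis), with SE bars and filled points where the limma adjusted p was under 0.05. Mir17 moves from -0.13 on day 1 to -1.21 on day 25, whereas Mir19b-1 has open points on all 6 days.

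Markers of mesenchymal cells moved with the genotype as well. The summed level of Mir143, Mir145, Mir199a-1, Mir199a-2 and Mir214 (4 of the 5 present, Mir199a-1 at 0) was 20919 to 22910 RPM in Dnmt1 KO and 10984 to 14913 RPM in controls of day 9, and 11242 to 12515 RPM against 6132 to 7144 RPM on day 6. It was also higher in Dnmt1 KO on day 3 (15501 to 17839 against 10331 to 10698 RPM) and on day 11 (12417 to 14632 against 10596 to 11209 RPM), and overlapped on day 1. The methods allow for feeder cells, and whether such cells took part in the fall of the members on those days was not tested. On day 25 the marker sum was 1247 to 1292 RPM in Dnmt1 KO and 954 to 1050 RPM in controls, and the log2 differences of Mir17, Mir18, Mir19a, Mir20a and Mir92-1 were further below 0 than on day 9. A link between the sum and these differences was not tested on any day. The summed blood markers (Mir144, Mir451 and Mir223) were at 1.23 to 7.61 RPM. In bulk samples, fewer cells of a type and less RNA per cell cannot be told apart.

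Whether the effect itself changed with time was tested by the difference of the log2 fold changes between days. From day 1 to day 25, the effect became more negative for 6 of 7 members beside 19.9% of all features called and 10.2% called lower, by -1.08 ± 0.131 (SE) for Mir17, -0.97 for Mir18, -0.91 for Mir19a, -0.77 for Mir20a and -0.60 for Mir92-1 (limma, adjusted p from 1.59e-08 to 0.0123). From day 11 to day 25 it did so for 5 of 7 beside 20.5% (9.88% lower), the furthest being -1.26 ± 0.191 (SE, adjusted p = 2.42e-06 by limma) for Mir18. With miRNA features only in the fit, 113 of 291 features were called lower from day 1 to day 25 and 77 from day 11 to day 25. The call of Mir92-1 from day 11 to day 25 was lost without Dnmt1 KO replicate 1 of day 11 (adjusted p = 0.0519). It was also lost with miRNA features only, where its value was -0.24 (0.118). Without a filter, neither Mir92-1 (0.0506) nor Mir19a (0.0696) passed. From day 1 to day 11, Mir17 alone passed, by -0.40 (limma, adjusted p = 0.0447) beside 9.02% of all features (2.98% lower), and this call was lost in 10 of the 12 fits that leave out 1 library of those days, all but those without Dnmt1 KO replicate 1 of day 1 or of day 11 (adjusted p from 0.0588 to 0.251).

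The change on day 25 came with movement in the controls. From day 1 to day 25, 6 of 7 members rose in controls beside 50.9% of all features called and 22.8% called higher, Mir92-1 by 0.59 ± 0.087 (SE), Mir18 by 0.74, Mir17 by 0.28, Mir20a by 0.33 and Mir19b-1 by 1.46 (limma, adjusted p from 1.28e-07 to 0.0224). The rise of Mir20a was lost without control replicate 1 or 2 of day 1 (adjusted p = 0.0557 and 0.0747), and with median-ratio factors neither Mir17 (0.099) nor Mir20a (0.105) passed. In Dnmt1 KO over the same days, beside 47.1% called (25.8% lower and 21.3% higher), Mir17 fell by 0.80, Mir19a by 0.78 and Mir20a by 0.45, Mir19b-1 rose by 1.78, and Mir92-1 did not pass the test at 45165, 45316 and 43969 RPM on day 1 and 44950, 40357 and 42736 RPM on day 25. Mir19b-1 rose in both genotypes, from 16.8 to 28.7 RPM in controls of day 1 to 60.1 to 72.9 RPM on day 25. The day 25 libraries are also the shallowest of the time course. In controls the mesenchymal marker sum was 9177 to 11333 RPM on day 1 and 954 to 1050 RPM on day 25. The miR-290 family sum was 115767 to 122811 RPM and 175306 to 208803 RPM on the same days. Time in culture, depth and cell make-up cannot be told apart on day 25. By day 11, 2 of 7 members were lower in controls beside 34.9% of all features and 18.3% lower (Mir18 by -0.47 and Mir19b-1 by -1.12), and 4 of 7 were lower in Dnmt1 KO beside 28.2% and 14.1% lower (Mir17 by -0.48, Mir20a by -0.38, Mir92-1 by -0.37 and the host). The call of Mir20a there was lost without Dnmt1 KO replicate 3 of day 11 (limma, adjusted p = 0.0918). On the days between, the controls were not flat. Mir17, Mir18, Mir19a and Mir20a rose from day 1 to day 6 by 0.42 to 0.63 and Mir19b-1 fell by 1.15, 5 of 7 members beside 28.0% of all features (14.9% lower and 13.1% higher), and without control replicate 1 of day 1 or replicate 2 of day 6 the call of Mir18 was lost (0.0524 and 0.064). With the R1 libraries the fall of Mir19b-1 from day 1 was -0.30 on day 6 and -0.16 on day 11 (limma, adjusted p = 0.742 and 0.868), and the rises of Mir18 and Mir19a on day 6 did not pass (0.118 and 0.113). On day 3 and day 9, 0 members differed from day 1 in controls by limma, beside 15.5% and 19.1% of all features, with 1 and 0 members at an unadjusted p under 0.05 and 0 by voom on both days. In Dnmt1 KO, Mir92-1 and the host were lower than on day 1 on day 3 (2 of 7 beside 14.3%, 6.24% lower) and day 6 (2 of 7 beside 18.9%, 6.97% lower), and Mir17, Mir20a and the host on day 9 (3 of 7 beside 28.2%, 9.57% lower), the host no longer without Dnmt1 KO replicate 2 or 3 of day 9 (adjusted p = 0.053 and 0.0562 by limma). These differences share the day 1 libraries.

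Because the hairpins come from 1 transcript, their ratios to each other were compared between genotypes, which needs no scaling between libraries. Reads of Mir92-1 and Mir19b-1 cannot always be told from those of their chromosome X copies. Ratios to either of them may therefore hold reads of another transcript. Of 15 pairs, 6 differed (permutation of genotypes within days, 100000 resamples, two-sided, adjusted over the 15 pairs). Mir17 fell against Mir92-1 by 0.26 on the log2 scale (adjusted p = 0.0033, lower on 5 of 6 days) and against Mir19a by 0.28 (adjusted p = 0.0024, lower on 6 of 6 days). Mir20a fell against Mir92-1 by 0.23 (adjusted p = 0.0172, lower on 5 of 6 days, 0.0544 to 0.0729 without control replicate 1 or Dnmt1 KO replicate 2 or 3 of day 3), and Mir19a rose against Mir20a by 0.24 (adjusted p = 0.0024, higher on 5 of 6 days). Both Mir17 and Mir20a also fell against Mir19b-1, by 0.39 and 0.36. Mir17 over Mir20a, the pair that shares a seed, differed by -0.03 between genotypes (permutation p = 0.417), lower on 3 of 6 days. Mir19a over Mir92-1 differed by 0.01 (permutation p = 0.925), and by -0.074 without Dnmt1 KO replicate 1 of day 3. With the R1 libraries, the ratios of Mir17 and Mir20a to Mir92-1 and to Mir19b-1 no longer passed (adjusted p from 0.0748 to 0.0812). Across the 36 libraries, the log2 levels of Mir17 and Mir20a correlated with r = 0.94, those of Mir19a and Mir20a with 0.82, and those of Mir92-1 and Mir19a with 0.06. These libraries share days, genotypes and depth, and the correlations describe them only.

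**Figure D3:**
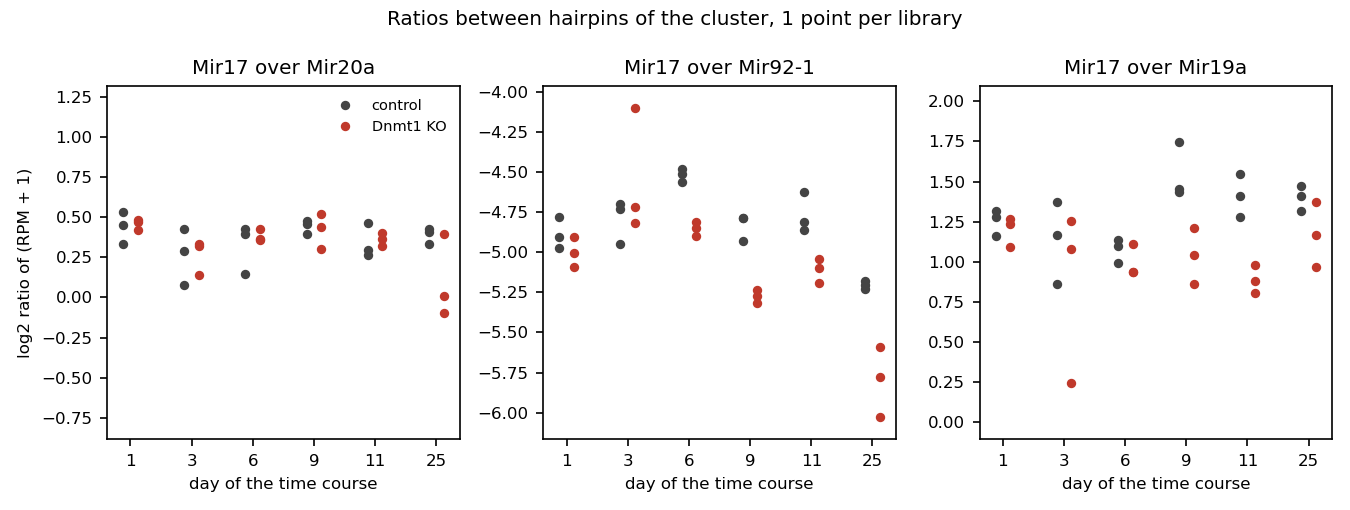
Log2 ratio of (RPM + 1) between 2 hairpins (y axis, the same span of 2.2 in each panel) by day, 1 point per library, control in gray and Dnmt1 KO in red. Mir17 over Mir20a overlaps between genotypes on each day, whereas Mir17 over Mir92-1 of Dnmt1 KO lies below the controls on days 6, 9, 11 and 25.

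The paralogous clusters carry the same seeds at other loci, and they were read in the same fit. Of the 9 paralogs (Mir106a, Mir18b, Mir20b, Mir19b-2, Mir92-2, Mir363, Mir106b, Mir93 and Mir25), all 9 were lower in Dnmt1 KO averaged over the days, beside 10.1% of all features, with a median log2 fold change of -0.60. With miRNA features only in the fit, 119 of 291 features were called lower in this average. Mir20b, which has the seed of miR-17, fell by 1.0 ± 0.040 (SE, adjusted p = 1.08e-23 by limma), and Mir106a, which differs from miR-17 at 1 of 23 positions (U10A), fell by 0.94.
miR-20b-5p (Mir20b): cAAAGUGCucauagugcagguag
miR-106a-5p (Mir106a): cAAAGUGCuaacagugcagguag
miR-93-5p (Mir93): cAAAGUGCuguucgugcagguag
miR-106b-5p (Mir106b): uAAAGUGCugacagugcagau
The 6 hairpins with the seed AAAGUGC on the 3 chromosomes, these 4 with Mir17 and Mir20a, were all called lower on each of days 6, 9, 11 and 25 and averaged over days, where their log2 fold changes ran from -1.0 to -0.35. Of all features, 9.33%, 6.12%, 2.36% and 17.0% were called lower on days 6, 9, 11 and 25. With miRNA features only in the fit, 91, 78, 70 and 134 of 291 features were called lower on these days. On day 11, the other 9 hairpins of the 3 clusters held 1 call (Mir92-2). With library totals, miRNA features only or day 11 fitted alone, 4 of the 7 members were called on that day, against 2 in the main fit. Mir92-1 and Mir25 of Dnmt1 KO also lay below all controls on day 11. The 4 hairpins with the seed AUUGCAC (Mir92-1, Mir92-2, Mir363 and Mir25) ran from -0.70 to -0.22 averaged over days, and the 3 with GUGCAAA from -0.53 to -0.20, so the seed families overlap. Hairpins of equal mature sequence can be set side by side. Mir92-2, with the same mature sequence as Mir92-1, fell by 0.70 ± 0.049 on chromosome X, and Mir92-1 by 0.34 ± 0.036 on chromosome 14 (log2, SE). The difference between them was not tested. A read within their shared run of 22 bases cannot be assigned to 1 copy. These falls, and the read ratio that follows, therefore do not measure the loci separately. The ratio of Mir92-1 to Mir92-2 reads had a median of 2.34 in controls (1.26 to 3.96, n = 18) and of 3.16 in Dnmt1 KO (1.32 to 4.78, n = 18).

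**Figure D4:**
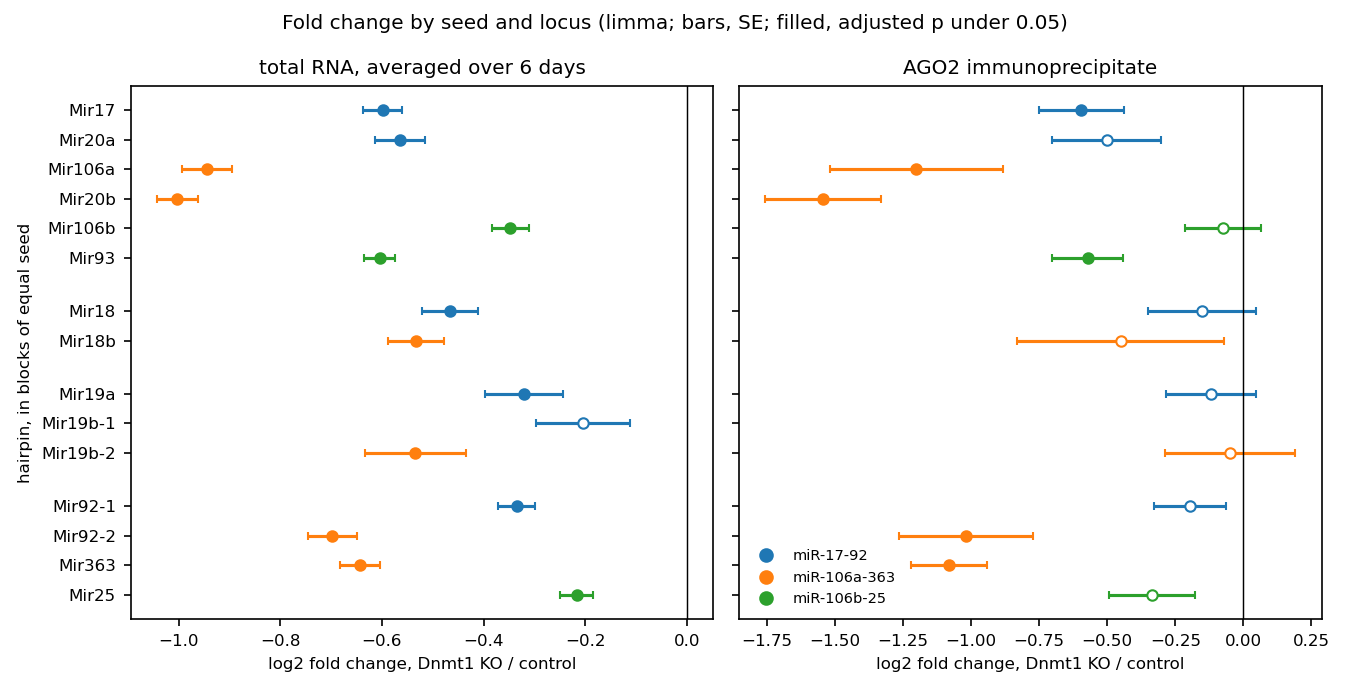
Log2 fold change of Dnmt1 KO over control (x axis) for the 15 hairpins of the 3 clusters, in blocks of equal seed and colored by cluster, in total RNA averaged over 6 days (left) and in AGO2 libraries (right), with SE bars and filled points where the limma adjusted p was under 0.05. All 15 points lie below 0 in total RNA, with Mir20b at -1.0 and Mir19b-1 at -0.20, where the miR-106a-363 points lie furthest left within their seed.

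AGO2-bound RNA was compared between genotypes in a fit of its own. Depth went with genotype here, at 11497718 to 25423036 reads in control and 1152390 to 11520133 in Dnmt1 KO, and its part was not tested. Mir17 was at 1570, 1817, 1388 and 1461 RPM in AGO2 control and at 1275, 1058, 1481 and 1138 RPM in AGO2 Dnmt1 KO. Replicate 3 of Dnmt1 KO lies inside the control range, and for none of the 7 members are the groups without overlap, beside 37.5% of all features. The log2 fold change was -0.59 ± 0.156 (SE, adjusted p = 0.0167 by limma), and 0.0270 with the replicate number as a block, since same-numbered AGO2 libraries deviated together. Without AGO2 control replicate 3 it missed the threshold (0.0507), and with the means of replicates 1 and 2 and of 3 and 4 as the samples it did too (0.24). Mir17 was the 1 member called of 6 tested, beside 36.4% of the 456 features tested in AGO2 and 11.6% called lower. Mir20a was at 953, 1053, 955 and 1011 RPM in control and at 1025, 636, 1035 and 727 RPM in Dnmt1 KO, a log2 difference of -0.50 (limma, adjusted p = 0.0836, and 0.0285 without Dnmt1 KO replicate 3). Mir92-1 was at 124343, 117847, 115537 and 111616 RPM in control and at 148025, 136924, 97906 and 113303 RPM in Dnmt1 KO, with overlap and on both sides of the controls. The log2 differences of Mir92-1 (-0.20), Mir18 (-0.15) and Mir19a (-0.12) did not pass, and all 3 were above 0 when scaled by library totals alone. Mir19b-1, at 1.29 to 10.3 RPM, did not pass the filter. The AGO2 calls depended on scaling. Scaling by library totals moved the median of all features by 0.25 and left 0 members called, and median-ratio factors moved it by -0.49 and gave 5, with 68.1% of all calls higher in the main scaling, 86.7% with library totals and 38.9% with median-ratio factors. The mesenchymal marker sum was 3698 to 4367 RPM in AGO2 Dnmt1 KO and 1336 to 1831 RPM in AGO2 control, and its part was not tested. Of the paralogs, 5 of 9 were lower in AGO2, with Mir20b at -1.54 and Mir363 at -1.08.

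Compared with total RNA of day 9, the AGO2 libraries held more Mir92-1 and less Mir19b-1, and the other hairpins did not pass the test. RPM was not scaled between the kinds of library here, and no share over all features was taken. The miR-290 family sum was also higher in AGO2, at 194763 to 269450 RPM in control against 119469 to 126306 RPM on day 9. The mesenchymal sum was lower in AGO2 control, at 1336 to 1831 RPM against 10984 to 14913 RPM. Mir92-1 was at 42477 to 45394 RPM in day 9 controls and at 111616 to 124343 RPM in AGO2 controls, and at 31554 to 32594 RPM and 97906 to 148025 RPM in Dnmt1 KO. The log2 difference of AGO2 minus total was 1.67 (exact permutation p = 0.000816 within genotypes, two-sided, the smallest that 1225 arrangements allow, adjusted p = 0.0019 over 7 members). It was 1.42 in control and 1.93 in Dnmt1 KO. Mir19b-1 was lower in AGO2 by 1.72 on the log2 scale (exact permutation, adjusted p = 0.0019), from 10.8 to 16.4 RPM in total RNA to 1.29 to 10.3 RPM. Its log2 difference was -2.51 in control and -0.92 in Dnmt1 KO. The log2 differences of Mir17 (0.29), Mir19a (0.24), Mir20a (0.12) and Mir18 (0.09) did not pass (exact permutation, adjusted p from 0.0557 to 0.563), though that of Mir17 did without AGO2 control replicate 3 or 4 (0.0325 and 0.045). These values average unlike genotypes. In Dnmt1 KO the differences were 0.57 for Mir17, 0.50 for Mir19a, 0.43 for Mir20a and 0.41 for Mir18, and in control 0.0093, -0.023, -0.19 and -0.22. With days 1 to 11 as total RNA, those of Mir18, Mir19a and Mir20a were below 0. Each of the 5 ratios to Mir92-1 was lower in AGO2, by 1.39 for Mir17, 1.43 for Mir19a, 1.55 for Mir20a, 1.58 for Mir18 and 3.39 for Mir19b-1 (exact permutation, adjusted p = 0.00136 over 15 pairs). Mir92-1 held 97.3% ± 0.564 (SD, n = 8) of the cluster's reads in AGO2. Against their chromosome X copies, the hairpins of equal mature sequence gave unlike values, with no test made. Reads of the shared sequences cannot be assigned to 1 copy. The ratio of Mir92-1 to Mir92-2 reads had a median of 2.73 in the 36 libraries of the time course and of 2.77 in AGO2. The ratio of Mir19b-1 to Mir19b-2 reads, of identical mature sequence, had a median of 1.04 in the time course (0.467 to 3.4) and of 0.156 in AGO2 (0.0814 to 0.533). Pull-down and library preparation differ between these groups together, so they cannot be told apart.

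The "none" libraries, whose labels do not say what was pulled down, were shallow. Mir92-1 was at 103805 RPM (5933 reads, 95% Poisson interval 101181 to 106481) in control and at 60631 RPM (596 reads, 55860 to 65700) in Dnmt1 KO, 96.7% and 97.4% of the cluster's reads. Mir17 was at 1487 RPM (85 reads) and 1017 RPM (10 reads). Intervals of single libraries cover counting error only. How far nonspecific RNA contributes to the AGO2 libraries was not tested.

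PGCs have 1 library per sex and stage, so no test was made. Mir92-1 was at 107875 RPM in E13.5 females, 135005 RPM in E13.5 males, 83773 RPM in E14.5 females and 92199 RPM in E14.5 males. All 4 lie above the 18 total RNA libraries of control ESCs, whose highest was 73056 RPM. Mir17 was at 1890, 2240, 1324 and 1496 RPM in the same order, which overlaps the control ESCs at 1338 to 1979 RPM. Mir19a was at 73.2 RPM (95% Poisson interval 63.5 to 83.9), 240 RPM (223 to 258), 119 RPM (108 to 131) and 117 RPM (101 to 134), all below the 443 to 897 RPM of control ESCs. Mir20a was at 592, 958, 495 and 542 RPM, all below the lowest control ESC library at 970 RPM, so Mir17 over Mir20a was 2.34 to 3.19 in PGCs and 1.06 to 1.44 in control ESCs. Mir18 was at 178, 364, 223 and 234 RPM. Mir19b-1 was at 5.33, 13.8, 30.8 and 24.2 RPM, against 7.32 to 72.9 RPM in control ESCs. The E13.5 male library was the highest of the 4 for Mir17, Mir18, Mir19a, Mir20a and Mir92-1, and in both sexes Mir17, Mir20a and Mir92-1 were lower at E14.5 than at E13.5. PGC and ESC libraries differ in cell source, sorting and input, which cannot be told apart. The mesenchymal sum was 547 to 810 RPM.

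**Figure D5:**
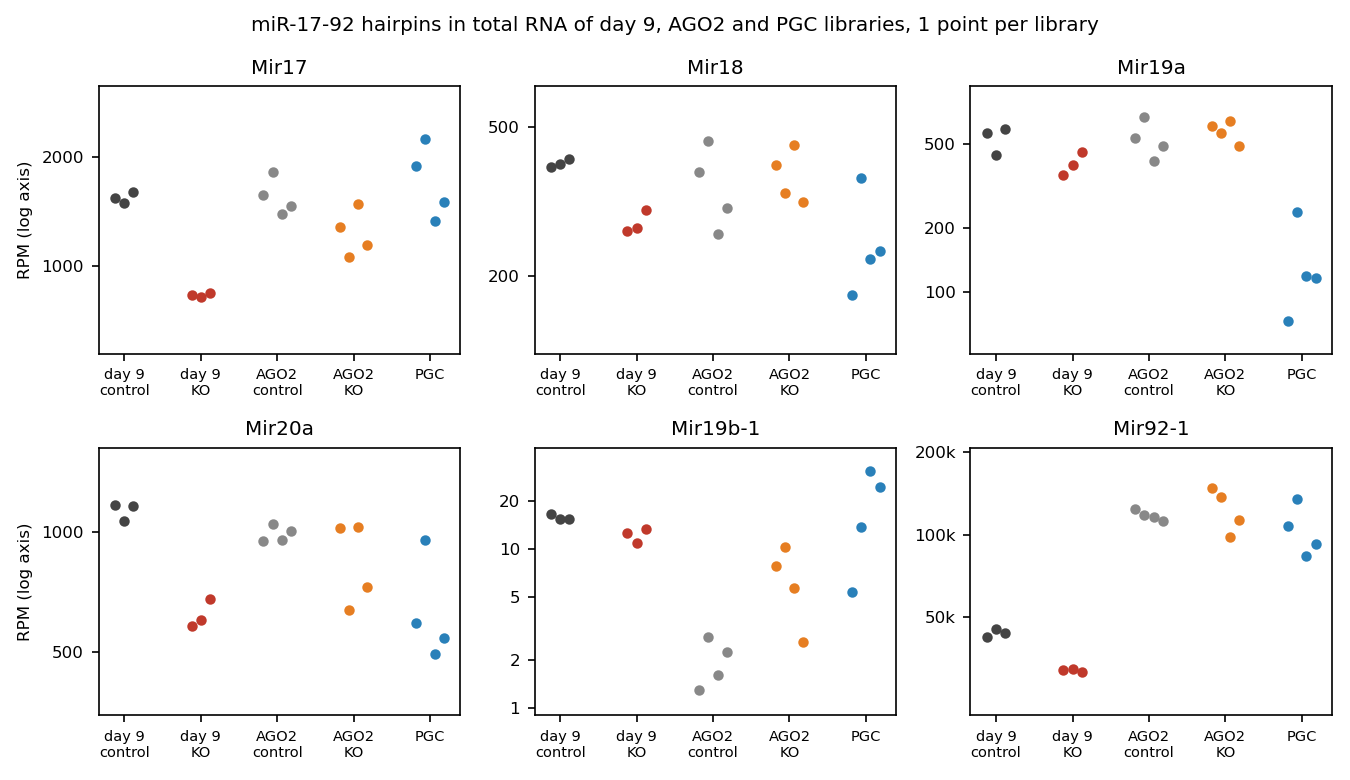
Level of each hairpin in RPM on a log axis in total RNA of day 9 (control and Dnmt1 KO, 3 libraries each), AGO2 libraries (4 each) and PGCs (4 libraries of differing sex and stage), 1 point per library. Mir92-1 is at 83773 RPM or more in all AGO2 and PGC libraries and at 45394 RPM or less in total RNA of day 9, whereas Mir19a is lowest in PGCs and Mir19b-1 is lowest in AGO2 control.

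The features most like the cluster over the 36 libraries were sought by correlation with the mean of the 6 scaled hairpin levels. Outside the interval, the 5 highest were CT010429.2 (r = 0.88), 3110082I17Rik (0.86), Mir339 (0.85), Gm15884 (0.80) and Mir141 (0.79). 3110082I17Rik contains Mir339, and Gm15884 contains Mir141, so these are 3 loci rather than 5. The paralogs Mir106b (0.78) and Mir93 (0.77) came next.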

How the data were processed

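Per the labels and methods, the authors trimmed small RNA reads (Trim Galore 0.3.5), kept 20 to 24 nt, aligned them to NCBIM37 (Bowtie2 2.2.9) and counted overlaps in SeqMonk. How reads with several equally good positions were placed is not given in the sources used here. The deposited table is named for counts but holds RPKM values, from which RPM was RPKM times the feature's span in kilobases, and whole reads were recovered (100% of low values within 0.05 of a read). RPM was TMM-scaled over features with at least 10 RPM in at least 3 libraries, and log2(RPM + 1) was tested with limma 3.58.1 (R 4.3.3), 36 libraries in 1 fit and 8 AGO2 libraries in another. Fold changes are on that log2 scale, which understates low features. A feature was called at an adjusted p under 0.05. Ratios and AGO2 against total RNA were tested by permutation. The members, paralogs and marker lists were chosen with earlier results of these data known. Named features were the 7 members, the 9 paralogs and the 5 features most like the cluster. By the correlation of their deviations, replicate numbers did not pair the time course (18 pairs, r from -0.066 to 0.047). Same-numbered AGO2 libraries deviated together (4 pairs, r from 0.194 to 0.386), but only 2 of the 4 controls correlated best with their own number. The fit was tested on simulated data. Alternatives were other scalings, filters and pseudocounts, voom, R1 libraries, left-out replicates and replicate blocks.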

Additional observations from a re-analysis of the deposited data

Results flagged for a closer look

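The Dnmt1 KO effect differed between days by the tests of the difference itself (limma). From day 1 to day 25 the change of the log2 fold change was -1.08 for Mir17, -0.97 for Mir18, -0.91 for Mir19a, -0.77 for Mir20a, -0.60 for Mir92-1 and -0.62 for Mir17hg. From day 11 to day 25 it was -1.26 for Mir18, -0.97 for Mir19a, -0.68 for Mir17, -0.43 for Mir92-1 and -0.44 for Mir17hg. From day 1 to day 11 it was -0.40 for Mir17 alone. The days share libraries between these differences, so the values are not independent of each other. No AGO2 group of 4 libraries held a library far enough from the others, for any member, to be named here.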

How the results depend on the processing

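The number of members called was changed as follows, and the causes were not tested. On day 1 it was 1 with at least 10 reads in every library, on day 3 it was 0 with each day fitted alone, and on day 11 it was 4 with library totals, with miRNA features only and with each day alone. The change of the effect from day 1 to day 11 had 3 members with library totals and with miRNA features only, 0 with median-ratio factors and 0 without a filter, and 0 to 1 when a replicate was left out. That from day 11 to day 25 had 3 without a filter and 3 with miRNA features only. In controls against day 1, day 3 had 1 with at least 10 reads (0 to 1 with a replicate left out), day 6 had 3 without a filter and 2 with R1 libraries, and day 11 had 1 without a filter, 4 with at least 10 reads, 4 by voom and 1 with R1 libraries (2 to 4 with a replicate left out, 4 without control replicate 3 of day 1). Day 9 against day 1 in Dnmt1 KO had 6 with library totals and 5 with miRNA features only. In AGO2 the number was 0 with library totals, 5 with median-ratio factors, 0 without a filter, 3 with miRNA features only, 2 by voom, 0 with averaged subsets and 0 to 2 with a replicate left out (0 without control replicate 3, 2 without Dnmt1 KO replicate 3).

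Signs turned for values that had not passed a test, apart from the AGO2 ratio of Mir18 to Mir19a, which had passed. On day 3 Mir19a was at -0.14 with miRNA features only and at -0.32 to 0.37 with a replicate left out. In AGO2 with library totals Mir17hg was at 0.057, Mir18 at 0.11, Mir19a at 0.14 and Mir92-1 at 0.063. The ratio of Mir17 to Mir20a was 0.016 without day 25 and 0.043 with R1 libraries, and that of Mir19a to Mir92-1 ran from -0.074 to 0.062 with a replicate left out. AGO2 against total RNA of days 1 to 11 gave -0.039 for Mir18, -0.10 for Mir19a, -0.13 for Mir20a and 0.060 for the ratio of Mir18 to Mir19a. Against total RNA of day 9 that ratio was -0.15 (exact permutation, adjusted p = 0.0449). With the replicate number as a block, the counts were 0, 2, 6, 5, 2 and 6 on the 6 days and 1 in AGO2, and the block changed no call. In the time course 5 libraries' deviations correlated best with their own number. Library totals moved the median of all features by -0.11 on day 9, -0.10 on day 25 and 0.25 in AGO2, median-ratio factors by -0.12 on day 6, and miRNA features only by -0.20 on day 6 and -0.32 on day 25. The share of all calls that were higher was 75.5%, 59.5%, 66.7%, 72.7% and 51.3% on days 1, 6, 9, 11 and 25, against 90.3%, 73.6%, 49.4%, 60.5% and 38.9% with library totals, and 41.2% on day 6 and 55.7% on day 9 with median-ratio factors. In the time course libraries without the suffix R1, Mir19b-1 held 17 to 87 reads a library.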

Other observations

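The R1 library titled PGC E14.5 male held 126367 RPM of Mir92-1, 1999 of Mir17, 909 of Mir20a, 384 of Mir18, 219 of Mir19a and 18.1 of Mir19b-1. The E13.5 male library held 135005, 2240, 958, 364, 240 and 13.8 RPM of the same hairpins, and the E14.5 male library 92199, 1496, 542, 234, 117 and 24.2 RPM. For all 6 hairpins the R1 library was nearer to the E13.5 male library than to the one whose title it shares. The R1 library titled E13.5 male held 133 reads of the cluster, all of them Mir92-1 (2205 RPM), and that titled E13.5 female 4885 reads, of which 4877 were Mir92-1 (42545 RPM).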
